A study of Mus musculus with 2 samples.

Results

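The chemokines considered here are 10 genes of the mouse liver, the CXC chemokines Cxcl1, Cxcl9, Cxcl10, Cxcl12 and Cxcl13 and the CC chemokines Ccl2, Ccl5, Ccl6, Ccl9 and Ccl24. They were taken by name, as the probe sets annotated with exactly 1 gene symbol where that symbol is 1 of the 10. The names were selected on knowledge of chemokine sources in liver and with the ratios between these arrays in view. This gave 18 of the 34958 probe sets with 1 symbol, and 10 of 18194 genes. All values below therefore describe these arrays and support no test.

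Liver RNA came from ICR mice, an outbred stock, at 13 weeks of age. Control mice ate the basal diet CRF-1, and diosgenin mice ate the same diet with 500 ppm of diosgenin, a steroidal sapogenin of yams and fenugreek, for 4 weeks after reaching 9 weeks of age. A single Affymetrix array per diet carried RNA pooled from 3 mice, so no value has a replicate and neither the spread between mice nor a p-value can be given. Cages held 3 mice, and cage and diet cannot be told apart if each diet was 1 cage.

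Chemokines are small secreted proteins that bind G protein-coupled receptors on leukocytes and guide their migration along a gradient held on cell surface glycosaminoglycans. The CC and CXC families are named for the spacing of their first cysteines. In liver they come from hepatocytes, from Kupffer cells, the resident macrophages of the sinusoids, and from stellate and endothelial cells, and many of them are controlled by NF-kB or by interferon gamma. In RNA from whole liver, fewer cells of a type and less RNA per cell cannot be told apart.

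Signals are linear intensities in arbitrary units. A signal under 10.7, the 40th percentile of all signals on both arrays, was treated as a floor below which values have no order. The brightest probe set by mean signal stands for a gene, and counts and medians use genes with a mean of at least 28.4, the 60th percentile over probe sets. Ratios are log2 of the diosgenin over the control signal, and higher or lower always refers to the diosgenin array. Probe sets of the same gene above the filter had log2 ratios with a standard deviation of 0.28 over 4079 genes, the only repeat measurement these arrays hold. Signals of different probe sets are not set against each other, since probes differ in how well they bind.

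Of the 10 chemokine genes, 6 passed the signal filter. Cxcl9, Cxcl1 and Ccl9 were at least 1.5-fold higher, where 2.84% of all 9732 genes above the filter were, and Ccl6 was at least 1.5-fold lower, where 3.61% of all genes were. Cxcl9 and Cxcl1 were also at least 2-fold higher, against 0.555% of all genes, and none of the 6 was at least 2-fold lower, against 0.853%. Cxcl13 and Cxcl12 lay within 1.5-fold. The median log2 ratio of the 6 genes was 0.41, beside −0.0053 for all genes above the filter. Without the filter it was 0.22 over 9 genes, and a stricter filter at the 75th percentile gave 0.71 over 3. Cxcl10, Ccl2, Ccl5 and Ccl24 were under the filter and are given by their signals. Since the 10 names were chosen with these ratios in view, these counts are a description and show nothing particular to chemokines.

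**Figure D1:**
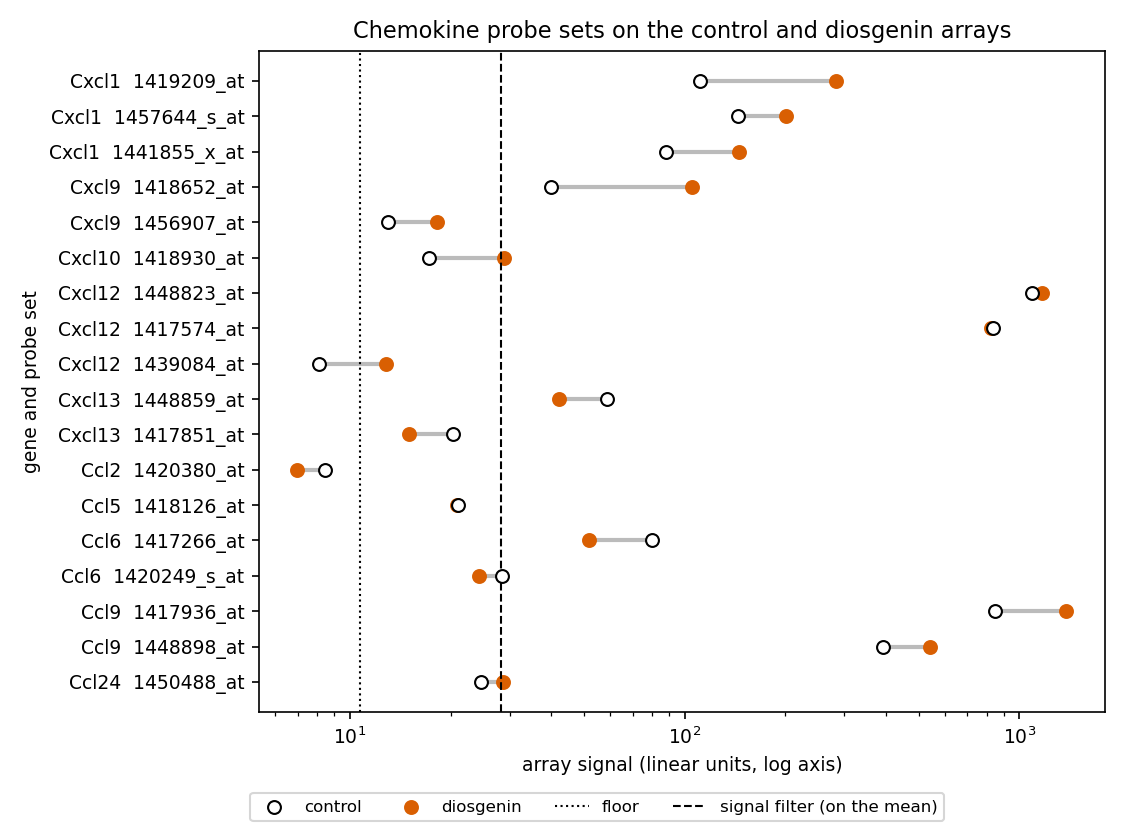
Signal of each of the 18 chemokine probe sets on the control array (open circles) and the diosgenin array (filled circles), on a log axis of linear intensity units, with 1 array per diet and therefore no error bars. All 3 Cxcl1 probe sets and both probe sets of Cxcl9 and Ccl9 lie further right on the diosgenin array, those of Cxcl13 and Ccl6 lie further left, and Ccl2 lies under the floor of 10.7 (dotted line) on both arrays.

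Cxcl1, known as KC, draws neutrophils through the receptor Cxcr2 and is made by hepatocytes, macrophages and endothelium after injury. Its probe set 1419209_at read 111 in the control pool and 282 in the diosgenin pool. The probe set 1457644_s_at read 144 and 201, and 1441855_x_at read 88.0 and 146. All 3 were higher on the diosgenin array, by 2.55-fold, 1.40-fold and 1.66-fold, with a mean log2 ratio of 0.85 ± 0.45 (SD over 3 probe sets of the same arrays). The last 2 are of a kind that can bind several transcripts, so their values are less certain. With the median of its probe sets in place of the brightest, the log2 ratio of Cxcl1 was 0.73 instead of 1.35, still over 1.5-fold. Of the 9732 genes above the filter, 16 had a higher ratio than Cxcl1.

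The receptor and several relatives of Cxcl1 were dim. Cxcr2 read 3.80 in the control pool and 5.605 in the diosgenin pool, both under the floor. Cxcl2, Cxcl3 and Cxcl5, which act on the same receptor, were also under the floor on both arrays, at 5.78 and 4.76, 4.94 and 1.22, and 1.01 and 0.438. Ppbp, another ligand of Cxcr2, read 27.0 and 22.3, above the floor and under the filter. In the RefSeq annotation of GRCm38.p6, Cxcl1 lies on chromosome 5 between Cxcl15 and Cxcl2, in a cluster that also holds Pf4 and Cxcl3. Pf4, a platelet chemokine, read 42.7 and 44.8. Markers of neutrophils, the cells it attracts, were dim as well. None of the 7 neutrophil markers with a probe set passed the filter, and the 4 above the floor on both arrays summed to 74.7 in the control pool and 59.6 in the diosgenin pool. Elane, Camp and Ltf were under the floor on both arrays, and S100a8 and S100a9 read 19.4 and 15.7 and 20.02 and 16.4.

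Cxcl9 and Cxcl10 attract activated T cells and natural killer cells through the receptor Cxcr3 and are classical products of interferon gamma. Cxcl9 read 39.9 in the control pool and 105 in the diosgenin pool with the probe set 1418652_at. Its dimmer probe set 1456907_at, under the filter, read 13.0 and 18.2. Both were higher on the diosgenin array, by 2.64-fold and 1.40-fold, with a mean log2 ratio of 0.94 ± 0.65 (SD over 2 probe sets). In 12 genes above the filter the ratio was higher than that of Cxcl9. Cxcl10, read by 1418930_at alone, had signals of 17.2 and 28.9, above the floor but with a mean of 23.1 under the filter. This is 1.68-fold higher, and 11.9% of the 8285 probe sets under the filter that had a ratio were at least 1.5-fold higher. The log2 ratio of 0.75 for Cxcl10 was 0.02 with a floor set at the 60th percentile and 0.44 with 16 added to both signals, either of which is under 1.5-fold.

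The third ligand of Cxcr3 differed from these. Cxcl11 read 55.6 in the control pool and 33.1 in the diosgenin pool, 1.68-fold lower, and its other probe set was under the floor on both arrays at 9.26 and 7.07. Cxcr3 itself read 32.5 and 25.1, a log2 ratio of −0.37. Of the ligands of this receptor that passed the filter, Cxcl9 was higher and Cxcl11 lower. The log2 ratio of Cxcl11, −0.75, lay inside −0.95 to 0.83, the central 95% among the 4065 dimmest probe sets above the filter. In that class 8.68% were at least 1.5-fold lower. Cxcl9, at 1.40, lay above the matching range of its own brighter class, −0.65 to 0.64. In RefSeq, Cxcl9 and Cxcl10 lie on chromosome 5 with Art3 between them.

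The promoter windows of Cxcl1, Cxcl9 and Cxcl10 are shown because these CXC genes have known inputs from NF-kB and interferon. They were picked with the ratios in view, and Cxcl10 did not pass the signal filter. Each window runs from 250 bases before to 50 bases after the RefSeq start site in GRCm38.p6, at chr5:90890995-90891294 on the plus strand for Cxcl1, chr5:92328030-92328329 on the minus strand for Cxcl9 and chr5:92348840-92349139 on the minus strand for Cxcl10. They are printed 5′ to 3′ on the gene's strand, and capitals mark matches to the searched motifs.
Cxcl1: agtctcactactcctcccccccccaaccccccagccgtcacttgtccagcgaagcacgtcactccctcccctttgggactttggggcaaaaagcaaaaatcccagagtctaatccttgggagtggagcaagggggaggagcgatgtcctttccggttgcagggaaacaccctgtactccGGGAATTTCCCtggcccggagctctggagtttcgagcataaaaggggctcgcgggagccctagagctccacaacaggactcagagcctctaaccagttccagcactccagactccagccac
Cxcl9: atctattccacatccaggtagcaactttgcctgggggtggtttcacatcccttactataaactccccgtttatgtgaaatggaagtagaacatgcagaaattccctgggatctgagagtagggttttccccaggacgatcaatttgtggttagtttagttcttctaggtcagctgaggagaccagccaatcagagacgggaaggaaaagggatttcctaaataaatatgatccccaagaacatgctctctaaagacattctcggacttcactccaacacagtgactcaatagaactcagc
Cxcl10: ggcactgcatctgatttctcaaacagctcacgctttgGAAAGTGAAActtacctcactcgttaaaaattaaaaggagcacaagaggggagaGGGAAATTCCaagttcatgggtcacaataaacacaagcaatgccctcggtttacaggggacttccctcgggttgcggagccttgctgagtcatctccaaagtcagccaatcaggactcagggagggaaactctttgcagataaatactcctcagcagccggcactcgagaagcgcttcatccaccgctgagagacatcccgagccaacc

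Both strands were searched for 3 motifs, an interferon-stimulated response element (GAAA and GAAA with any 2 bases between them), an NF-kB site (GGGA and TTCC with any 2 bases between them) and a STAT site (TTCNNNGAA). Of 32851 mouse promoter windows of the same length, 3.44% held the first, 1.47% the second and 8.30% the third. Cxcl10 held the response element, as GAAAGTGAAA beginning at position −213 from the start site, and an NF-kB match, GGGAAATTCC at −159. Cxcl1 held GGGAATTTCC at −71, with a match on the opposite strand overlapping it by all but 1 base. The Cxcl9 window held none of the 3 in these letters, which says nothing about sites written otherwise or lying outside it. Windows were on hand for 7 of the 10 genes, and those of Cxcl12, Cxcl13, Ccl6 and Ccl9 held no match.

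Cxcl12 and Cxcl13 are the homeostatic CXC chemokines. Cxcl12, which retains blood progenitors and lymphocytes through Cxcr4, read 1092 in the control pool and 1172 in the diosgenin pool with 1448823_at. A second probe set, 1417574_at, read 836 and 824. Their log2 ratios of 0.10 and −0.02 had opposite signs and were small, with a mean log2 ratio of 0.04 ± 0.09 (SD over 2 probe sets). The third probe set, 1439084_at, was under the floor on the control array at 8.09 and read 12.9 on the diosgenin array, at least 1.196-fold higher. Cxcr4 was also under the floor on the control array, with 8.85 and 11.1.

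Cxcl13 guides B cells into follicles through Cxcr5. It read 58.7 in the control pool and 42.1 in the diosgenin pool with 1448859_at, and 20.3 and 15.1 with 1417851_at, which was under the filter. Both probe sets were lower, by 1.40-fold and 1.35-fold, with a mean log2 ratio of −0.46 ± 0.03 (SD over 2 probe sets). This stayed inside −0.95 to 0.83, the central 95% of log2 ratios among the 4065 dimmest probe sets above the filter. Cxcr5 was under the floor on both arrays, at 7.61 and 1.76. Of the lymphotoxin axis, which maintains Cxcl13 in lymphoid tissue, 2 of 7 genes passed the filter, and Ltbr and Map3k14 had log2 ratios of −0.05 and 0.31. Lta, Ltb and Tnfsf14 were under the floor on both arrays. Markers of B and plasma cells were not lower as a sum. The 5 above the floor on both arrays read 133 and 142, with Pax5 at 34.5 and 42.8, Jchain at 34.6 and 29.5 and Mzb1 at 34.1 and 36.0, and Cd79a was under the floor on the control array at 9.86 and at 27.7 on the diosgenin array.

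Ccl9 and Ccl6 are related CC chemokines of myeloid cells that act on Ccr1, and in RefSeq they are direct neighbours on chromosome 11, in a run with Ccl5 before and Ccl3 and Ccl4 after them. They differed in opposite directions. Ccl9 read 845 in the control pool and 1381 in the diosgenin pool with 1417936_at, and 390 and 541 with 1448898_at. Both probe sets were higher, by 1.63-fold and 1.39-fold, with a mean log2 ratio of 0.59 ± 0.17 (SD over 2 probe sets). Among the 4065 brightest probe sets the central 95% of log2 ratios reached from −0.48 to 0.45, and both Ccl9 values, 0.71 and 0.47, lay above it.

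Ccl6 read 80.1 in the control pool and 51.9 in the diosgenin pool with 1417266_at, 1.54-fold lower. Its shared probe set 1420249_s_at, under the filter, read 28.4 and 24.4, 1.17-fold lower. The mean log2 ratio was −0.42 ± 0.29 (SD over 2 probe sets), and the brighter value of −0.63 lay just inside the central range of its signal class, which began at −0.65. With 16 added to both signals in place of the floor, the log2 ratio of Ccl6 was −0.50, under 1.5-fold. Their receptor Ccr1 was under the floor on both arrays, at 8.67 and 5.68. Next to them, Ccl3 was under the floor on both arrays at 0.940 and 8.82, and Ccl4, an attractant of macrophages and T cells, read 17.4 and 35.9, under the filter and 2.06-fold higher.

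The remaining CC chemokines were dim. Ccl2, the main attractant of Ccr2-bearing monocytes, read 8.41 in the control pool and 6.98 in the diosgenin pool, both under the floor, so no ratio is given. Ccr2 gave 11.4 and 16.5 with its brightest probe set, and its other 3 had at least 1 signal under the floor. Ccl5, which recruits T cells, read 21.0 and 20.9. Ccl24, an eosinophil attractant that acts on Ccr3, read 24.7 and 28.7, and Ccr3 read 9.04 and 12.5. Prg2, Epx and Siglecf, which mark eosinophils, were under the floor on both arrays. For Ccl5 and Ccl24 the difference between the arrays was under 1.2-fold. Both log2 ratios lay inside −1.04 to 1.04, the central 95% among probe sets under the filter.

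**Figure D2:**
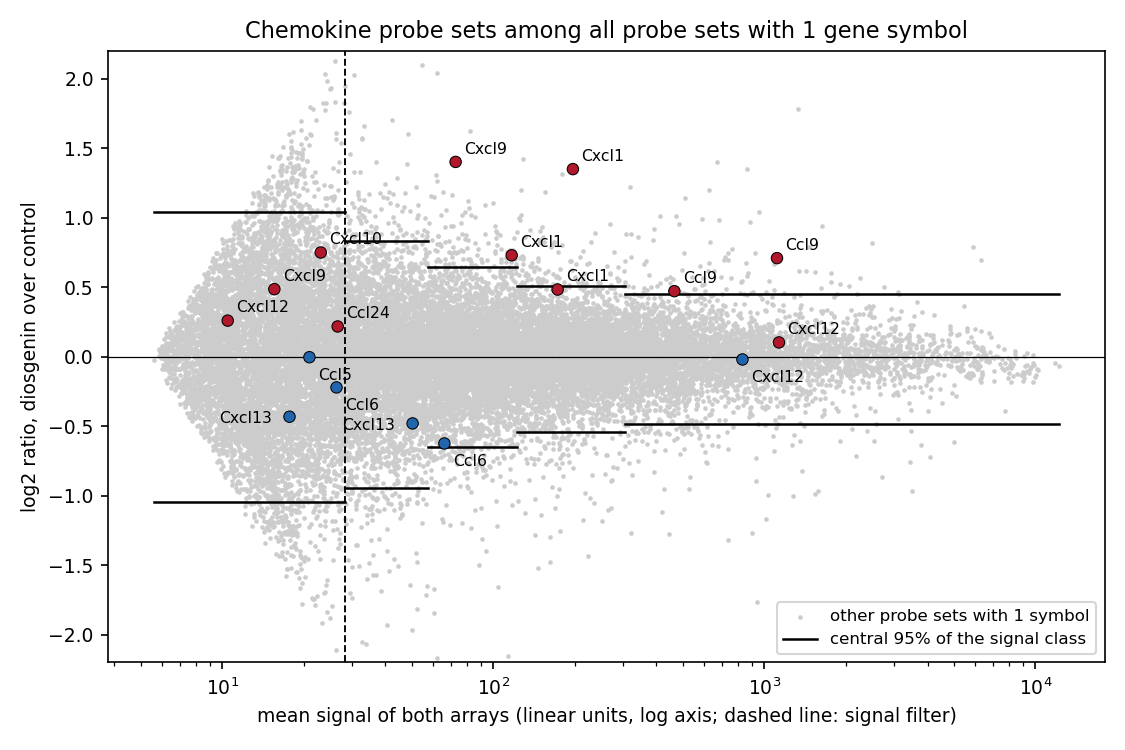
Log2 ratio of the diosgenin over the control array against mean signal for every probe set with 1 symbol and a ratio (grey), with the 17 chemokine probe sets that have a ratio in red (higher) or blue (lower). Horizontal lines bound the central 95% of ratios in each signal class, the dashed line is the signal filter, and 23 probe sets beyond ±2.2 are not drawn. Lying above the bounds are 2 probe sets of Cxcl1, 2 of Ccl9 and 1 of Cxcl9.

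Probe sets of the same chemokine mostly lay on the same side. Of the 6 chemokine genes with at least 2 probe sets measured on both arrays, 5 had all of them on the same side, and Cxcl12 was the exception. Over all 5405 such genes the share was 46.8%, and over the 240 of them above the filter and at least 1.5-fold apart it was 60.4%. These shares take no account of the number of probe sets of a gene. The chemokines were also chosen with their ratios in view, so the shares are a description only. Of the 17 chemokine probe sets with a ratio, 5 lay outside the central 95% of their signal class. They were those read at 1419209_at and 1441855_x_at for Cxcl1, at 1418652_at for Cxcl9 and at both probe sets of Ccl9.

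Above the filter, the other chemokine ligands showed no common direction. Of 31 listed, 25 had a probe set of their own and 6 passed the filter, with 1 at least 1.5-fold higher, 1 at least 1.5-fold lower and a median log2 ratio of 0.04. The higher one was Cxcl16, a membrane-bound ligand of Cxcr6, which read 31.3 and 55.7 with a second probe set at 29.2 and 40.9. Its log2 ratio of 0.829 lay just inside the central 95% of its signal class, which ended at 0.834. Cxcl11 was the lower one. Ccl27a, read by a shared probe set, had 44.5 and 60.6, while 2 probe sets annotated with it among other symbols were lower, at 59.5 and 41.5 and at 67.5 and 63.7. Ccl19 had no probe set of its own, and a probe set annotated with it among other symbols read 24.1 and 51.0, 2.12-fold higher. Among dim ligands, Ccl8 read 17.5 and 30.7, Ccl7 was under the floor on the control array at 8.28 and read 15.9 on the diosgenin array, and Cx3cl1 read 7.76 and 23.5, at least 2.19-fold higher. The 3 other probe sets of Cx3cl1 were under the floor on both arrays. Without the filter, 5 of the other ligands were at least 1.5-fold apart, with Cxcl16, Ccl4, Ccl8 and Cx3cl1 higher and Cxcl11 lower.

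Of 19 chemokine receptors, 17 had a probe set of their own, and Cxcr3 alone passed the filter. Another 9 were under the floor on both arrays, among them Cxcr2, Cxcr5 and Ccr1, and no receptor above the filter was 1.5-fold apart. Decoy receptors, which take up chemokines without signalling, and the related receptor Ccrl2 were mostly lower by small amounts. Ackr2, which clears inflammatory CC chemokines, read 51.5 and 39.3, and Ackr1 read 54.9 and 50.4. Ackr3, Ackr4 and Ccrl2, all under the filter, read 19.6 and 15.2, 26.5 and 26.1, and 22.3 and 16.2. Dpp4, the protease that trims and inactivates Cxcl9, Cxcl10 and Cxcl12, read 469 and 478 with its brightest probe set. Its other probe sets, also above the filter, disagreed in sign, with log2 ratios of 0.26, 0.41 and −0.45. The 3 genes of this list above the filter had a median log2 ratio of −0.12, and none was 1.5-fold apart.

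Genes of the interferon gamma pathway were mixed. Among the 13 that passed the filter, higher signals were seen for 7 and lower ones for 6. At least 1.5-fold higher were 2 of them and at least 1.5-fold lower 0, and the median log2 ratio was 0.16. Of all 9732 genes above the filter, 2.84% were at least 1.5-fold higher and 3.61% lower. The lower genes of the list were Ifngr1, Ifngr2, Jak2, Irf1, Irgm1 and Irgm2, which are parts of the pathway as well as targets. Gbp2, a guanylate-binding GTPase, read 25.8 and 62.8, with a second probe set at 25.6 and 45.05. Gbp7 read 82.1 and 132, with a second probe set at 44.0 and 46.3. The receptor chain Ifngr1 had signals of 110 and 81.8, and the immunity GTPase Igtp had 455 and 600. Ifng itself was under the floor on both arrays, at 0.484 and 5.45. Under the filter, Gbp3 read 12.0 and 19.1. Ciita read 10.0 and 19.2, under the floor in the control pool, and Ido1 read 13.5 and 2.31, under the floor in the diosgenin pool. By their brightest probe sets, targets and parts of NF-kB signalling were closer together, with 6 higher and 5 lower of 11, a median of 0.02 and none 1.5-fold apart. Other probe sets above the filter differed from this in Vcam1, Tnfaip2 and Nfkbia. The adhesion molecule Vcam1 read 41.0 and 42.9 with its brightest probe set, but 25.04 and 52.3 and 20.03 and 43.9 with 2 others, log2 ratios of 1.06 and 1.13. In that list the cytokine gene Il1b read 41.3 and 30.4, Tnfaip2 178 and 141 with a second probe set at 166 and 110, the inhibitor Nfkbia 924 and 1074 with 4 further probe sets at log2 ratios of 0.07 to 0.59, and Bcl3 176 and 156. Tnf and Il6 were under the floor on both arrays. Under the filter, Nfkb2 read 17.7 and 35.9 by a shared probe set, 2.03-fold higher, while Relb read 15.1 and 11.6 and Nfkbie 26.7 and 22.1. Tnfaip3 read 25.3 and 16.9 with its brightest probe set and 15.7 and 25.9 with its other. Nfkb1 had no probe set of its own.

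**Figure D3:**
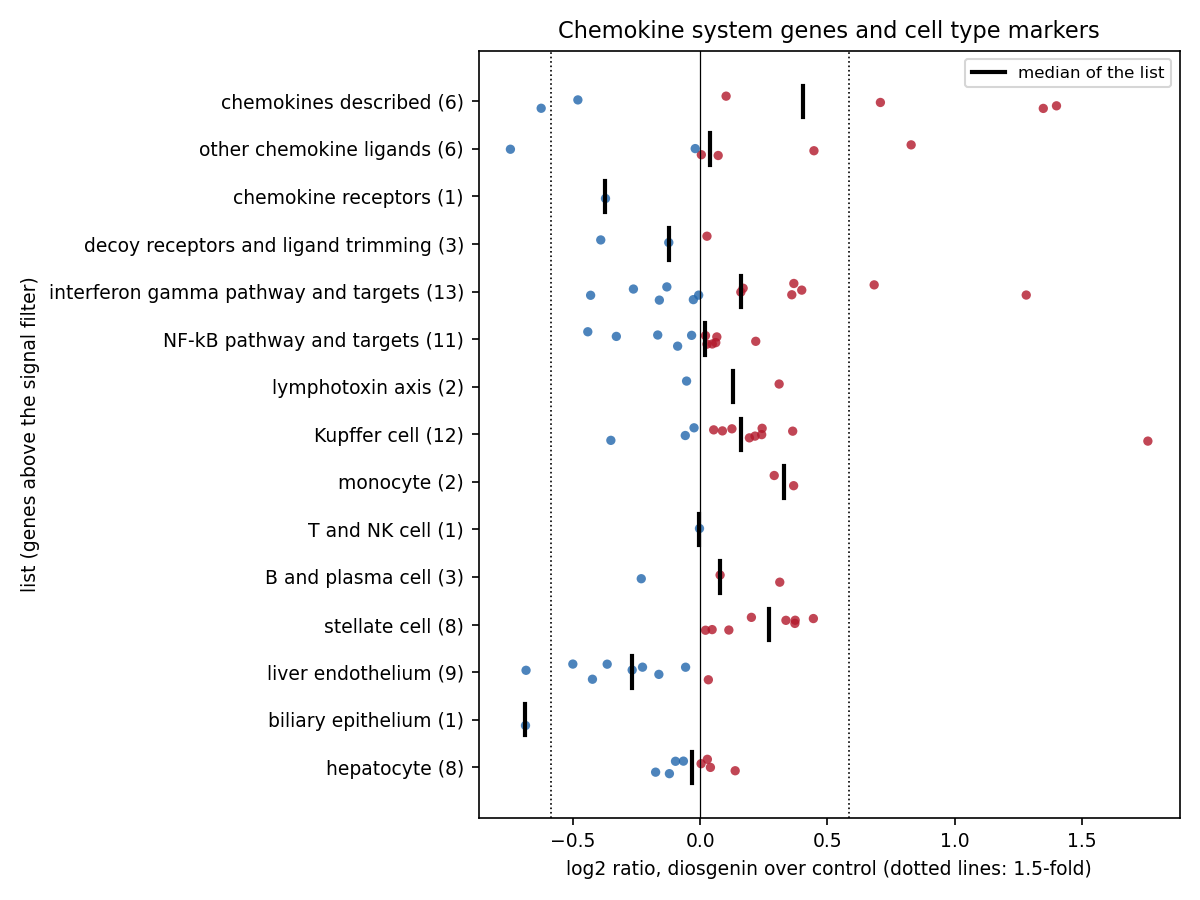
Log2 ratio of each gene above the signal filter in the lists of the chemokine system and of cell type markers, with the number of genes in brackets and the list median as a black bar. Dotted lines mark 1.5-fold, and there are no error bars with 1 array per diet. The chemokines described spread from −0.63 to 1.40, while NF-kB genes, each drawn by its brightest probe set, lie between −0.44 and 0.22. Vcam1 is drawn at 0.07 and has 2 dimmer probe sets at 1.06 and 1.13.

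Markers of cells that can make or follow chemokines differed between the arrays too. All 12 Kupffer cell markers passed the filter, 9 of them higher and 3 lower, their median log2 ratio was 0.16 and their signals summed to 2880 and 3174. Among them Marco, with a mean signal of 29.2 just over the filter, read 13.3 and 45.1. Its shared probe set under the filter read 19.3 and 29.2, a log2 ratio of 0.59 beside 1.76. The defining marker Clec4f read 341 and 439 and Cd163 105 and 82.0, while C1qa read 268 and 318. Adgre1 and Cd5l had log2 ratios of −0.06 and −0.02. By their brightest probe sets, stellate cell markers were higher in 8 of 8 above the filter, with a median of 0.27. Hgf, Dcn, Des and Reln had the largest ratios, 0.44, 0.37, 0.37 and 0.34. Dimmer probe sets were lower for Lrat, Col3a1 and Dcn, at −0.51, −0.25 and −0.16, that of Dcn being under the floor on the diosgenin array. Those of Des, Colec11 and Hgf were higher, at 0.40, 0.41, 0.30 and 0.08. Col1a1, under the filter, read 31.3 and 17.2. Markers of liver endothelium were lower in 8 of 9, with a median of −0.27, led by Clec4g at 745 and 464, Lyve1 at 128 and 90.5, Dnase1l3 at 314 and 234 and Stab1 at 129 and 100.3. The part of these cells in the chemokine values was not tested.

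Of the 6 monocyte markers with a probe set, 2 passed the filter, Lyz2 at 149 and 192 and Plac8 at 119 and 146. Under the filter, Cd52 read 25.5 and 30.1 and Ccr2 11.4 and 16.5. F13a1 read 13.0 and 10.2, under the floor in the diosgenin pool, and Chil3 was under the floor on both arrays. Of the T and NK cell markers with a probe set, 1 of 9 passed the filter, Cd8a at 31.2 and 31.1 by a shared probe set, and Cd3d, Cd3g, Gzmb and Ncr1 were under the floor on both arrays. Gzma read 13.5 and 16.6. Cd4, Nkg7 and Cd3e were under the floor in the control pool, at 5.57, 7.64 and 7.85, and above it in the diosgenin pool, at 16.6, 14.5 and 11.4. The 9 markers summed to 83.7 and 109, and the 2 that were above the floor on both arrays to 44.8 and 47.8. Of the biliary markers Sox9 read 42.0 and 26.1, and Krt7 and Cftr were under the floor on both arrays. None of 6 dendritic cell markers passed the filter, and the 4 above the floor on both arrays summed to 70.1 and 67.5. Markers of hepatocytes, which define the tissue, were bright on both arrays, with Alb at 9517 and 8429 and Cps1 at 5532 and 6085, and had a median log2 ratio of −0.03 over 8 genes.

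**Figure D4:**
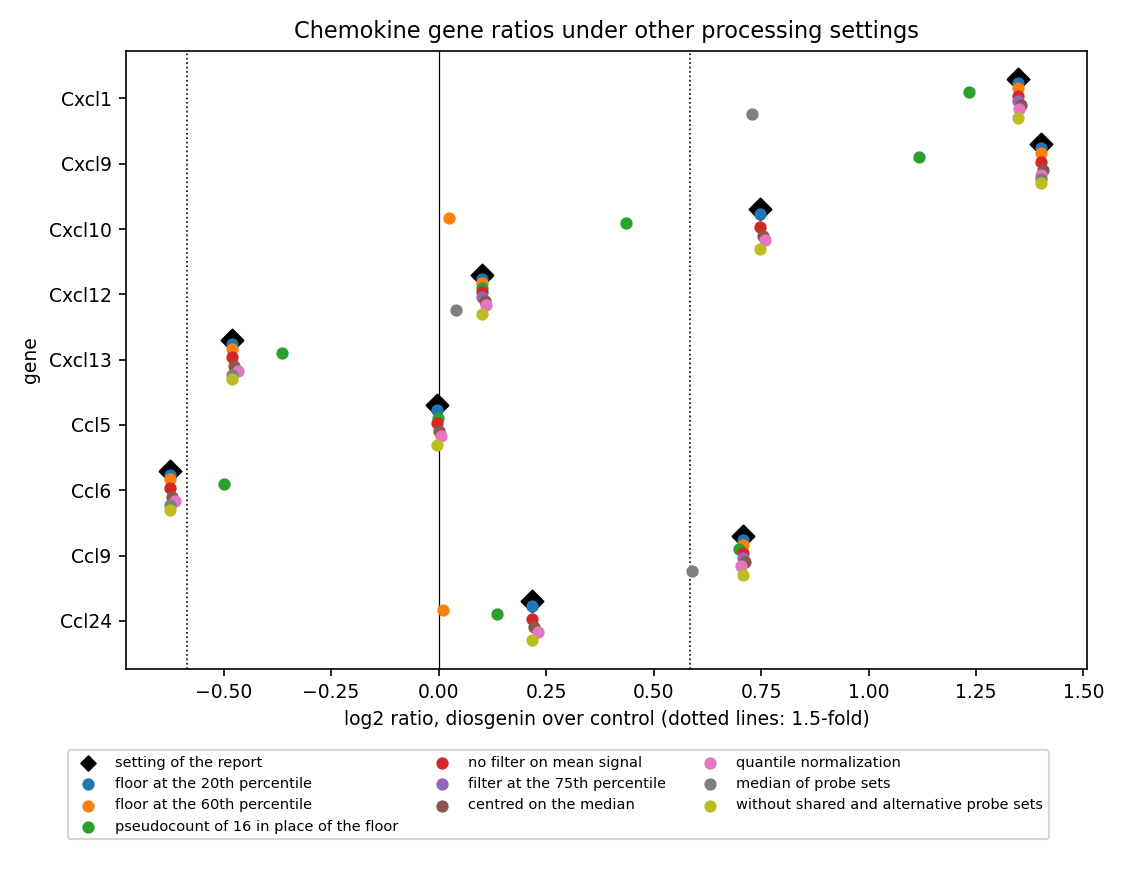
Log2 ratio of each chemokine gene under the setting of the report (black diamonds) and under 9 other processing settings (circles), where dotted lines mark 1.5-fold. Each of the 6 genes above the filter keeps its sign, Cxcl1 is at 0.73 with the median of its probe sets, and Ccl5 stays close to 0.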

How the data were processed

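Each diet gave 1 array, made with pooled liver RNA of 3 mice. Per the labels' protocols, 5 µg of RNA was labelled with biotin in a one-cycle reaction. The deposited values are linear array intensities for 45101 probe sets, and per the submitters' processing notes GCOS was used. Its version, its summary algorithm and any detection calls are not stated in those notes. The 2% trimmed mean was 96.9 on both arrays, so both had been scaled alike, and 59.9% and 60.1% of signals lay above the floor.

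Gene names came from the platform annotation. Of the probe sets, 34958 had 1 symbol, 932 several and 9211 none, and only the first kind was used for gene values, counts and medians. Signals of probe sets with several symbols are given for Ccl27a and Ccl19 only. The floor and filter percentiles were taken over all probe sets. All 10 chemokine genes matched the RefSeq table of GRCm38.p6. Chemokines, gene lists and thresholds were chosen with earlier results of these data known. The genes named from each list were up to 4 with the largest absolute log2 ratio above the filter, together with the receptors of the 10 chemokines. Others (neighbouring genes, second ligands of a receptor, dim genes and marker genes) were chosen after their values were seen. Ratios were computed with Python 3.11.15, pandas 2.3.3 and numpy 2.4.6, and the procedure was tested on simulated arrays. No test was run, since 1 array per diet allows none. A planned comparison of protein sequences was not made.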

Additional observations from a re-analysis of the deposited data

How the results depend on the processing

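Of the 6 chemokine genes above the filter, Cxcl1, Cxcl9, Cxcl12, Cxcl13, Ccl6 and Ccl9 kept their sign under every one of the 9 alternatives in which they had a value. The ratio of Cxcl9 was lowest, at 1.12, with a pseudocount of 16, and that of Cxcl1 lowest, at 0.73, with the median of probe sets. That median took only probe sets above the filter, so it could not move Cxcl9, Cxcl13 or Ccl6, whose second probe sets are dimmer. Over both probe sets the median was 0.94 for Cxcl9, −0.46 for Cxcl13 and −0.42 for Ccl6, where Ccl6 is under 1.5-fold. The count of chemokine genes at least 1.5-fold higher was 3 in the setting of the report and 4 without the filter, where Cxcl10 joined at 0.75. It fell to 2 with a 75th percentile filter, which removes Cxcl9. The count lower was 1 and became 0 with the pseudocount and also 0 with a 75th percentile filter, which removes Ccl6. That filter left 3 chemokine genes with a median of 0.71 in place of 0.41, while it was 0.22 without the filter and 0.31 with the median of probe sets. Other chemokine ligands at least 1.5-fold apart numbered 2, against 1 with the pseudocount, 5 without the filter and 0 with the 75th percentile filter, which leaves none of them. With the pseudocount, 157 of all genes were at least 1.5-fold higher and 191 lower, against 276 and 351, and without the filter 752 and 865. No paired analysis was possible because each diet has 1 array. Signals near the floor, as for Cxcl10, which had 0.02 with the floor at the 60th percentile, and for Ccl5 and Ccl24, limit what can be said of these genes.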
